A study of Mus musculus with 8 samples.

Results

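A set of 10 genes that mark blood cells of nearly every lineage, among them the gene of CD45, were followed in sorted mural cells of mouse skeletal muscle. The genes are Ptprc, Coro1a, Rac2, Vav1, Laptm5, Cd52, Cd53, Arhgdib, Ptpn6 and Ikzf1. They were chosen by name, and each name matched 1 row, giving 10 of the 37979 genes listed. Bulk RNAseq had been performed on 4 pericyte libraries and 4 SMC libraries, numbered 1 to 4 in each group. The mice were Ai14+/-;SM22α-Cre+ animals of both sexes, 3 to 4 months old, and hindlimb muscle was the source of all cells, so both groups carried the Cre and the tdTomato reporter. Cre under the SM22α promoter marks any cell that has used this promoter, whatever it uses at the time of the sort. Pericytes were PDGFRβ+tdTomato- cells and SMCs were PDGFRβ+tdTomato+ cells. CD31 and CD45 antibodies shared the FITC colour, and both gates took FITC-negative, DAPI-low cells. The gate was thus set against cells with the protein of Ptprc itself. How fully such cells were removed was not tested. Several sorts were pooled for each library, and the labels give the same batch month for all 8 libraries. How many animals stand behind a library, and whether same-numbered libraries share animals, is not given in the sources used here, so p-values measure the spread between these pools. In bulk RNA, fewer cells of a type and less RNA per cell cannot be told apart.

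CD45 is a transmembrane tyrosine phosphatase on nucleated blood cells, where it removes an inhibitory phosphate from Src-family kinases such as Lck and Lyn. Signals from antigen and integrin receptors then pass through Vav1, an exchange factor, to Rac2, a small GTPase that drives actin remodelling. Ptpn6 (SHP-1) opposes these signals, and Ikzf1 (Ikaros) is a zinc-finger transcription factor of lymphoid development. Pericytes and SMCs are mesenchymal cells of the vessel wall and are not the cells these genes are known for.

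Levels are given in FPKM, a count of fragments scaled to the length of the transcript and to the size of the library. Summed over all genes, FPKM reached 690247 to 782014 in pericyte replicates 1, 3 and 4, 1190435 in pericyte replicate 2, and 656405 to 737839 in SMCs. The number of reads behind a value is unknown, but the steps between low values put the relative depth at 0.865 to 1.05 for pericyte libraries and at 0.992 to 1.06 for SMC libraries. The 8 pericyte markers summed to between 74.7 and 174.6 FPKM in the pericyte libraries and to between 135.3 and 510.4 FPKM in the SMC libraries. Among them Rgs5 was higher in SMCs (q = 0.0240), and the other 7, Pdgfrb among them, did not pass in the main test. Over all genes tested, 11.2% were higher in SMCs (q below 0.05). The 6 smooth muscle markers summed to between 570.5 and 1856 FPKM in pericytes and to between 1715 and 5524 FPKM in SMCs, and none of the 6 passed. Every marker of both lists was above 0 in all 8 libraries, and the libraries labelled pericytes were not the higher group for either list. Pdgfrb, the receptor used in the sort, had 5.51, 3.21, 12.5 and 17.6 FPKM in pericytes and 15.6, 17.4, 64.97 and 91.5 FPKM in SMCs (log2 fold change -2.02, q = 0.0973). The call for Pdgfrb depended on the settings. It passed as higher in SMCs with genes kept at 1 FPKM in 4 or more libraries (q = 0.0272). With the replicate number as a block it also passed (q = 0.00601). The same held with replicates 1 and 2 against 3 and 4 as a covariate (q = 0.00104). After correction for transcript length and GC content it passed too (q = 0.0140). Pecam1, the gene of CD31, was higher in SMCs, at 102 to 301 FPKM against 24.96 to 59.7 FPKM (log2 fold change -2.06, q = 0.00873). The 8 endothelial markers summed to 81.9 to 134 FPKM in pericytes and 297 to 981 FPKM in SMCs, and the 7 fibroblast markers to 905 to 1772 FPKM and 3975 to 6280 FPKM. Dcn, the gene of the matrix proteoglycan decorin, went against the other 6 fibroblast markers, with 1165, 1115, 509 and 571 FPKM in pericytes, and it is listed at 0 in all 4 SMC libraries. Whether these zeros stand for absent RNA or for a level that was not computed was not tested. Without Dcn, left out after its values were seen, the fibroblast sums were 334 to 607 FPKM in pericytes and 3975 to 6280 FPKM in SMCs.

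All 10 pan-leukocyte genes were higher in pericytes. Each was above 0 in every library, and for each gene the lowest pericyte library lay above the highest SMC library. Levels were compared as log2(FPKM + 1) with limma, a linear model fitted to all 27414 genes with a value above 0 in at least 1 library, and the q value is the p-value adjusted by Benjamini-Hochberg over those genes. The log2 fold change, pericytes over SMCs, lay between 3.09 (Arhgdib) and 4.63 (Rac2), with a median of 4.005. Over all genes tested the median was 0.02. All 10 genes passed a q value below 0.05 with a log2 fold change above 2, a call made for 3.24% of all genes tested and for 7.14% of the 10245 genes with a mean log2 level of at least 2. Without the fold threshold, 10.6% of all genes tested were higher in pericytes (q below 0.05). A complete separation with pericytes above was found in 12.1% of all genes tested. For each of the 10 genes the two-sided exact permutation test gave p = 0.0286, the smallest value that 4 libraries against 4 allow.

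**Figure D1:**
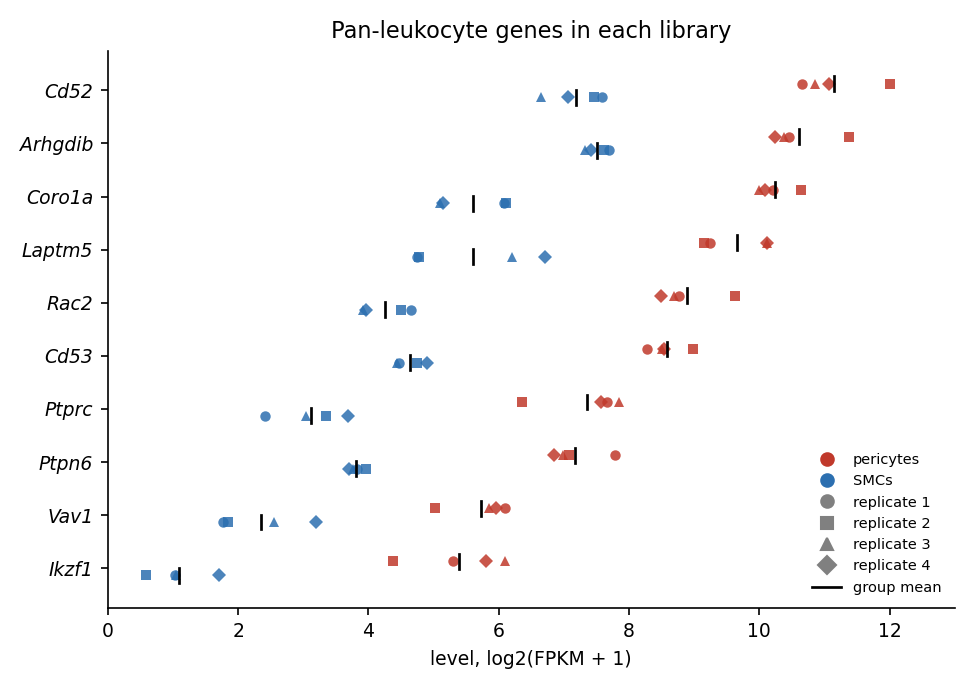
Level of each pan-leukocyte gene in each library as log2(FPKM + 1) on the horizontal axis, with genes ordered by mean FPKM in pericytes. Red symbols are pericyte libraries, blue symbols are SMC libraries, the symbol gives the replicate number and the black tick is the group mean. The red and blue symbols do not overlap for any of the 10 genes, and pericyte replicate 2 is the highest red symbol for Cd52, Arhgdib, Coro1a, Rac2 and Cd53 and the lowest for Laptm5, Ptprc, Vav1 and Ikzf1.

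Promoter sequences were read for the members because they moved together. RefSeq windows on GRCm38.p6, from 250 bases before to 50 bases after a transcript start, were found for 8 of the 10 genes (13 windows), and Rac2 and Cd52 were not matched. These coordinates belong to another build than the gene positions given with the values. The windows were searched on both strands for AGGAAG, a core bound by Ets factors such as PU.1, for TGTGGT, bound by Runx factors, for TGGGAA, bound by Ikaros, and for TATAAA, the TATA box. The Ets and Ikaros letters share GGAA. The Ets core AGGAAG was in at least 1 window of each of the 8 genes, where 38.4% of all 27025 genes have such a window, and in 9 of 13 windows (69.2%), and in 35.4% of all 32851 windows. TGTGGT was in 2 of 13 windows (16.8% of all windows), TGGGAA in 1 of 13 (25.6% of all windows) and TATAAA in 3 of 13 (13.6% of all windows). The motifs were chosen with earlier results of these data known, genes with several windows have more chances to match, and a match is a description of letters only. Ptprc, with its upstream window, and the 4 members with a single window are printed 5′ to 3′, with AGGAAG or its reverse complement CTTCCT in capitals. Ptprc held the motif 3 times, Laptm5 held it 2 times, and Cd53, Ptpn6 and Vav1 held it 1 time each.
Ptprc (chr1:138175256-138175555, minus strand): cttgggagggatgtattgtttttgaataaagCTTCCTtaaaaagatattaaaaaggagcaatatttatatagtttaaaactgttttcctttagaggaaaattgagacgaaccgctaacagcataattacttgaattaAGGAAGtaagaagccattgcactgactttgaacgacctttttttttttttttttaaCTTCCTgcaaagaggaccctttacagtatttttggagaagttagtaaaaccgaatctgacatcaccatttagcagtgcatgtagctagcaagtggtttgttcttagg
Laptm5 (chr4:130913066-130913365, plus strand): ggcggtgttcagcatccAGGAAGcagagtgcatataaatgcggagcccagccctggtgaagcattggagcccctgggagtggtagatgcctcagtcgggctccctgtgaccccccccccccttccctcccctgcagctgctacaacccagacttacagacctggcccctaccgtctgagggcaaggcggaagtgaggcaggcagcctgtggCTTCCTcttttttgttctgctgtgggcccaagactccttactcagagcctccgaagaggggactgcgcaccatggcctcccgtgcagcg
Cd53 (chr3:106790100-106790399, minus strand): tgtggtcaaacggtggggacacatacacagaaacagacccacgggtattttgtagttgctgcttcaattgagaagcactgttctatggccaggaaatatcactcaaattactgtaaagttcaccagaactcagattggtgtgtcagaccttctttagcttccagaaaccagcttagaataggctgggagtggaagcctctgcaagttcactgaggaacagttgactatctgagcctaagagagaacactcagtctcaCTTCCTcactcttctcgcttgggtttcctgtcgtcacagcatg
Ptpn6 (chr6:124738660-124738959, minus strand): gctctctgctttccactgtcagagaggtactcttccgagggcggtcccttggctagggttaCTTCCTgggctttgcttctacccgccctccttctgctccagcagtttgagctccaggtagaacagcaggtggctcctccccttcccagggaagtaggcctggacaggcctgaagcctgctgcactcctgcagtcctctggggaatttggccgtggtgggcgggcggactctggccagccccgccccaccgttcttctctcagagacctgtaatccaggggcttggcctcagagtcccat
Vav1 (chr17:57278850-57279149, plus strand): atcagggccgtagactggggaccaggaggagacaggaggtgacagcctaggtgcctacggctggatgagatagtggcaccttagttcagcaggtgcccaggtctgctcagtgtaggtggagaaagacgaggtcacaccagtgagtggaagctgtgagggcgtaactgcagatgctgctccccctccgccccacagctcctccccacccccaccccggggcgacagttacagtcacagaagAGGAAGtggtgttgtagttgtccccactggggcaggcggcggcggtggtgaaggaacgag

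The phosphatases were described first. Ptprc (ENSMUSG00000026395) encodes CD45 and lies on chromosome 1 of NCBI Build 37 (chr1:139959438-140071882, minus strand). In pericyte replicates 1 to 4 it had 202, 80.6, 230.3 and 189 FPKM, and in SMC replicates 1 to 4 it had 4.34, 9.15, 7.26 and 11.9 FPKM. Pericyte replicate 2 was the low library of its group, at less than the others but still above every SMC library. The log2 fold change of Ptprc was 4.24 (SE 0.40, q = 4.0e-04), and without pericyte replicate 2 it was 4.57. Ptpn6, the cytoplasmic phosphatase SHP-1 (chr6:124670725-124688732, minus strand), had 219, 134, 126 and 114 FPKM in pericytes and 13.2, 14.6, 12.5 and 11.999 FPKM in SMCs. Its SMC libraries were close to each other, and pericyte replicate 1 was the highest of its group. Ptpn6 had a log2 fold change of 3.36 (SE 0.20, q = 6.0e-05). A processed transcript on the opposite strand overlaps 195 bases of the Ptpn6 exons, and whether reads were counted by strand is not given in the sources used here.

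The Rac pathway was represented by 4 genes. Vav1 turns on Rac proteins after receptor stimulation and lies on chromosome 17 (chr17:57418523-57468659, plus strand). It had 67.2, 31.4, 56.9 and 61.3 FPKM in pericytes and 2.41, 2.60, 4.89 and 8.20 FPKM in SMCs. SMC replicates 3 and 4 were above SMC replicates 1 and 2. Vav1 had a log2 fold change of 3.39 (SE 0.38, q = 8.8e-04). Rac2, the blood-cell Rac GTPase (chr15:78389599-78403213, minus strand), had 434, 793, 411 and 358 FPKM in pericytes. In SMCs Rac2 had 24.1, 21.7, 14.1 and 14.7 FPKM, with replicates 1 and 2 above replicates 3 and 4. This is a log2 fold change of 4.63 (SE 0.29, q = 6.9e-05).

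Arhgdib keeps Rac and related small GTPases in the cytosol as an inhibitor of GDP release (chr6:136872044-136890420, minus strand). It had 1401, 2648, 1325 and 1204 FPKM in pericytes and 206, 196, 159 and 170.3 FPKM in SMCs. It was the pan-leukocyte gene with the highest mean in SMCs. Its log2 fold change of 3.09 (SE 0.25, q = 2.2e-04) was the smallest of the 10 in the main test. After correction for length and GC content that of Cd52 was the smallest. Coro1a is a coronin, which binds actin filaments in blood cells (chr7:133843287-133851301, minus strand). It had 1188, 1588, 1025 and 1086 FPKM in pericytes and 66.7, 68.4, 33.3 and 34.4 FPKM in SMCs. The SMC libraries of Coro1a fell into replicates 1 and 2 and the lower replicates 3 and 4. Pericytes exceeded SMCs by a log2 fold change of 4.62 (SE 0.29, q = 6.9e-05).

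The membrane proteins came next. Cd52 encodes a short glycopeptide anchored to the surface of lymphocytes (chr4:133638363-133650997, minus strand). It had 1618, 4101, 1853 and 2151 FPKM in pericytes, and 190.4, 175, 98.9 and 133 FPKM in SMCs. Pericyte replicate 2 was far above the other pericyte libraries. The log2 fold change of Cd52 was 3.96 (SE 0.34, q = 2.6e-04), and it became 2.59 once each library was corrected for transcript length and GC content, an alternative chosen after seeing the data. Exons of Aim1l on the opposite strand overlap 172 bases of the Cd52 exons, and Aim1l itself had 0.555 to 2.23 FPKM in pericytes and 0.0627 to 0.625 FPKM in SMCs. Cd53 is a tetraspanin, a protein that organises receptors in the membrane (chr3:106561779-106593067, minus strand). It had 309, 507, 364 and 371 FPKM in pericytes and 21.3, 25.7, 20.7 and 28.8 FPKM in SMCs. Both groups of libraries were tight for Cd53, and its log2 fold change of 3.94 had the smallest standard error of the 10 genes (0.17, q = 1.9e-05). Laptm5 is a lysosomal protein that takes part in the turnover of antigen receptors (chr4:130469040-130492056, plus strand). It had 608, 569, 1115 and 1107 FPKM in pericytes and 25.9, 26.5, 72.6 and 103.3 FPKM in SMCs. Replicates 3 and 4 were above replicates 1 and 2 in both groups. Laptm5 had a log2 fold change of 4.05, with the largest standard error of the 10 genes (0.52, q = 0.00150).

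The transcription factor Ikzf1 (chr11:11585006-11672929, plus strand) had the lowest mean of the 10 genes in both groups, although in pericyte replicate 3 it was above Vav1. It had 38.2, 19.8, 67.4 and 54.7 FPKM in pericytes, and 1.05, 0.499, 1.06 and 2.28 FPKM in SMCs. Pericyte replicate 2 was the lowest pericyte library, as for Ptprc and Vav1. Ikzf1 had a log2 fold change of 4.30 (SE 0.41, q = 4.0e-04). Because the SMC values lie near the added constant of 1, this scale understates its change, and with a constant of 0.1 the log2 fold change was 5.13.

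Since FPKM is scaled to transcript length, the levels of the 10 genes were also ordered. Differences between pericyte libraries still ran with transcript length, as given below, and the part of length in this order was not tested. In pericytes the mean FPKM (± SD, n = 4) fell from 2431 ± 1135 for Cd52 and 1644 ± 674 for Arhgdib through 1222 ± 253 for Coro1a, 849.6 ± 302 for Laptm5 and 499 ± 199 for Rac2. Cd53 followed at 388 ± 84.1, then Ptprc at 175 ± 65.6, Ptpn6 at 148 ± 47.8, Vav1 at 54.2 ± 15.8 and Ikzf1 at 45.0 ± 20.6. The ranges of neighbours in this order overlapped except between Cd53 and Ptprc and between Ptpn6 and Vav1. In SMCs the mean FPKM fell from 183 ± 21.9 for Arhgdib and 149.5 ± 41.4 for Cd52 through 57.1 ± 37.8 for Laptm5 and 50.7 ± 19.4 for Coro1a. Cd53 followed at 24.1 ± 3.85, then Rac2 at 18.6 ± 5.05, Ptpn6 at 13.1 ± 1.14, Ptprc at 8.16 ± 3.18, Vav1 at 4.53 ± 2.70 and Ikzf1 at 1.22 ± 0.753. Here the ranges of neighbours were apart between Coro1a and Cd53, between Ptpn6 and Ptprc and between Vav1 and Ikzf1. Within libraries, Cd52 was above Arhgdib in all 4 pericyte libraries and below it in all 4 SMC libraries. Together the 10 genes held 0.856% to 0.915% of all FPKM in pericytes and 0.0606% to 0.0823% in SMCs.

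The balance among the 10 genes was described by the ratio of each to Ptprc in the same library. Arhgdib over Ptprc was 5.75 to 6.92 in pericyte replicates 1, 3 and 4, 32.8 in pericyte replicate 2, and 14.3 to 47.4 in the SMC libraries. Vav1 over Ptprc was 0.247 to 0.389 in pericytes and 0.285 to 0.690 in SMCs. Ikzf1 over Ptprc was 0.189 to 0.292 in pericytes and 0.0545 to 0.241 in SMCs. Cd53 over Ptprc was 1.53, 6.29, 1.58 and 1.97 in pericyte replicates 1 to 4 and 2.42 to 4.90 in SMCs. For each of the 9 ratios to Ptprc the ranges of the groups overlapped. For Cd53 and Arhgdib the overlap rested on pericyte replicate 2, and the other 3 pericyte libraries lay below every SMC library.

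Pericyte replicate 2 stood apart in a way that ran with transcript length. Over the 13588 genes averaging 1 FPKM or more, the difference between pericyte replicate 2 and the mean of the other 3 pericyte libraries correlated with transcript length (the longest coding transcript) at a Spearman correlation of -0.56, a description across genes of the same libraries. The median difference was 0.96 on the log2(FPKM + 1) scale in the class of shortest transcripts (median 625.5 bases) and -0.47 in the class of longest (median 5249 bases). Among the 10 genes, Cd52 (514 bases) differed by 1.14 and Arhgdib (1325 bases) by 1.02. Ptprc (5814 bases) differed by -1.35, Ikzf1 (5163 bases) by -1.35 and Vav1 (4096 bases) by -0.95. Rac2 did not follow this order, with 3036 bases and a difference of 0.99, and the same held for Cd53, with 2802 bases and 0.55, and for Laptm5, with 2600 bases and -0.67. After correction for length and GC content, the difference was 0.16 for Cd52, -0.93 for Ptprc, -0.97 for Ikzf1, -0.67 for Vav1, 0.54 for Arhgdib, -0.66 for Laptm5, 0.41 for Cd53 and 1.07 for Rac2. The part of transcript length in the group difference was not tested beyond this, and all 10 genes were called with pericyte replicate 2 left out and after the correction.

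**Figure D2:**
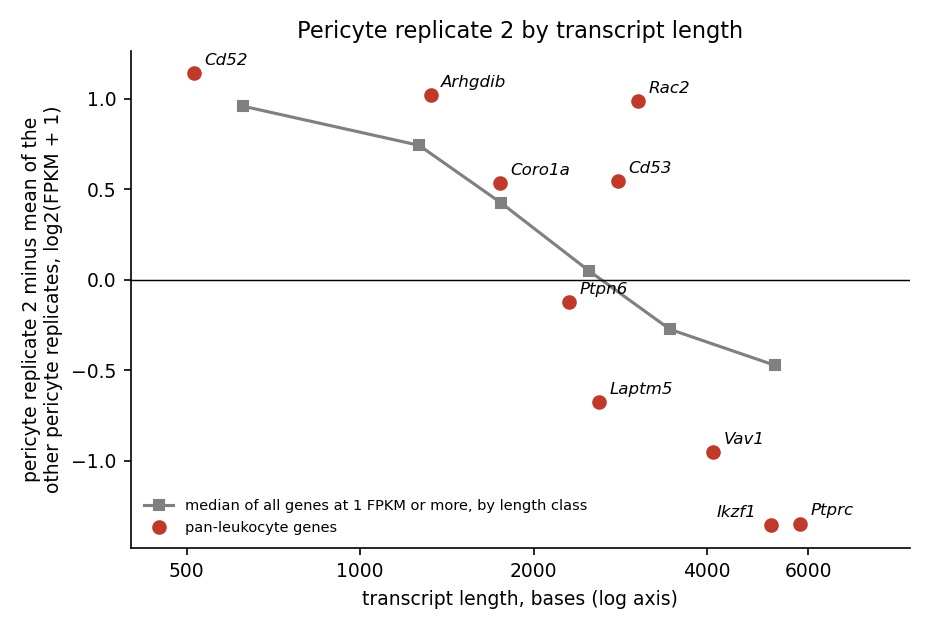
Difference between pericyte replicate 2 and the mean of pericyte replicates 1, 3 and 4, in log2(FPKM + 1), against transcript length in bases on a log axis. Red points are the 10 pan-leukocyte genes and grey squares are the medians of all genes of at least 1 FPKM in 6 length classes. The grey line falls from 0.96 to -0.47, and the red points run from 1.14 for Cd52 to -1.35 for Ptprc and Ikzf1.

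Each pan-leukocyte gene but Cd52 was set beside a relative of its family that most cells use, to see whether the whole family differed. Rac1, the general Rac GTPase, had 14.1, 33.9, 20.03 and 16.6 FPKM in pericytes and 26.7, 20.03, 30.4 and 19.3 FPKM in SMCs. These values overlap, and the log2 fold change of Rac1 was -0.23 (q = 0.651). Rac2 was thus 20.5 to 30.8 times the level of Rac1 in pericyte libraries and 0.463 to 1.08 times in SMC libraries. Ptpra, a receptor phosphatase, had 3.80 to 10.7 FPKM in pericytes and 3.41 to 12.2 FPKM in SMCs (log2 fold change 0.02, q = 0.987). Ptpn11 (SHP-2), the relative of Ptpn6, had 3.58 to 8.36 FPKM in pericytes and 4.52 to 8.57 FPKM in SMCs (log2 fold change -0.20, q = 0.709). Ikzf5 had 5.86 to 11.99 FPKM in pericytes and 8.58 to 10.7 FPKM in SMCs (log2 fold change -0.0014, q = 0.999).

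Of the other 5 paired relatives, 3 did not pass and 2 were higher in SMCs. Coro1b, a coronin of many cell types, had 129 to 187 FPKM in pericytes and 73.2 to 160.0 FPKM in SMCs (log2 fold change 0.49, q = 0.288). Vav2 had 1.53 to 2.36 FPKM in pericytes and 0.718 to 2.23 FPKM in SMCs (log2 fold change 0.47, q = 0.174), and it passed without SMC replicate 3 (q = 0.00910) and after correction for length and GC content (q = 0.0249). Arhgdia, the general form of the inhibitor, had 332 to 411 FPKM in pericytes and 128 to 296 FPKM in SMCs, and missed the threshold (log2 fold change 0.88, q = 0.0842) although its groups did not overlap. With genes filtered at 1 FPKM in at least 4 libraries Arhgdia passed (q = 0.0406), as it did with replicates 1 and 2 against 3 and 4 as a covariate (q = 0.0116) and after correction for length and GC content (log2 fold change 1.19, q = 0.00134). Laptm4a, a lysosomal relative of Laptm5, was higher in SMCs, at 703 to 1035 FPKM against 119 to 317 FPKM in pericytes (log2 fold change -2.18, q = 0.00220). Cd63, a tetraspanin of lysosomes and exosomes, was also higher in SMCs, at 1601 to 2879 FPKM against 289.7 to 1128 FPKM (log2 fold change -1.88, q = 0.0167).

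For each of the 9 pairs the difference between the member and its relative, in log2(FPKM + 1) within a library, separated the groups completely, with pericytes above. The difference between the groups was smallest for Arhgdib against Arhgdia, where the pericyte mean was 2.09 ± 0.63 and the SMC mean -0.13 ± 0.80 (SD, 4 libraries each). It was largest for Laptm5 against Laptm4a, where the pericyte mean was 2.14 ± 1.11 and the SMC mean -4.09 ± 1.24. Each pair had a two-sided exact permutation p of 0.0286, the smallest this design allows, not adjusted over the 9 pairs. Over the whole list of 18 relatives, 2 were higher in pericytes (q below 0.05), namely Ikzf2 and Ikzf3, both lymphoid members of the Ikaros family, where 10.6% of all genes tested were higher in pericytes. A further 5 were higher in SMCs (Laptm4a, Laptm4b, Cd63, Cd81 and Ikzf4), where 11.2% of all genes tested were higher in SMCs. The count in pericytes became 5 after correction for length and GC content, in a fit of 20793 genes.

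**Figure D3:**
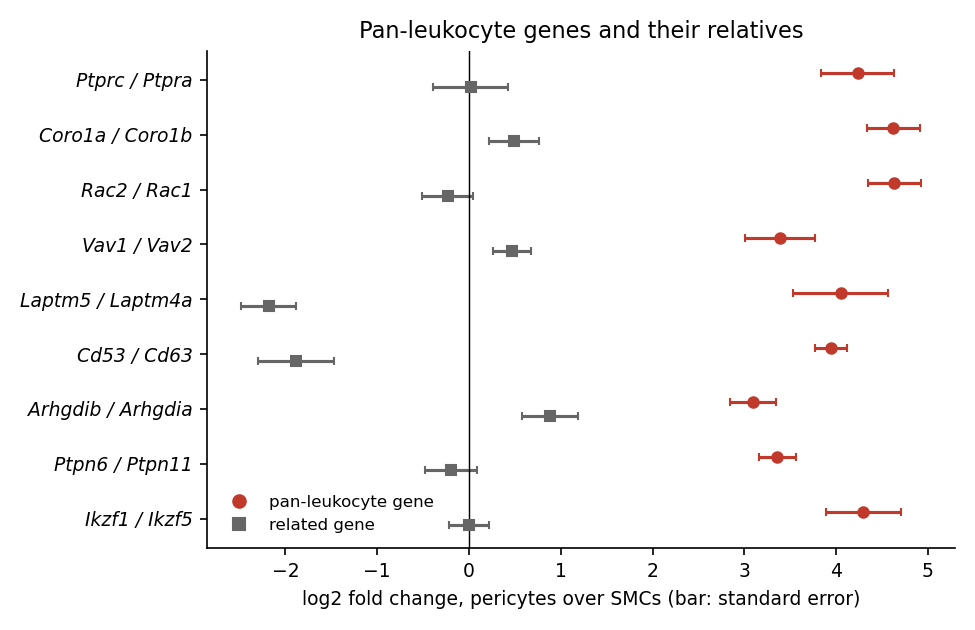
Log2 fold change, pericytes over SMCs, of 9 pan-leukocyte genes (red circles) and of a relative of each (grey squares), with bars for the standard error (SE) from limma. The red circles lie between 3.09 and 4.63, and the grey squares lie between -2.18 and 0.88.

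Other genes of blood cells, some used in most lineages and some in fewer, were taken from a list of 40. All 40 were higher in pericytes (q below 0.05), against a background of 10.6%, and 39 of them also passed the fold threshold. Their median log2 fold change was 3.32. The largest changes were those of Ptprcap, Tbc1d10c and Cd37. Ptprcap encodes a protein that associates with CD45, and it had 428, 927, 329 and 356 FPKM in pericytes and 12.9, 12.2, 7.48 and 7.79 FPKM in SMCs. Its log2 fold change was 5.43 (SE 0.36, q = 8.6e-05). Tbc1d10c, a regulator of small GTPases, had 94.5 to 174 FPKM in pericytes and 1.89 to 3.95 FPKM in SMCs, and Cd37, a tetraspanin like Cd53, had 345 to 691 FPKM in pericytes and 12.4 to 20.8 FPKM in SMCs. The smallest change was that of Spi1 (listed as Sfpi1), the gene of the myeloid and B cell factor PU.1, with 34.6, 66.2, 86.7 and 108 FPKM in pericytes and 11.3, 12.3, 19.2 and 27.4 FPKM in SMCs. Its log2 fold change was 1.98 (SE 0.41, q = 0.0130). Plcg2, a phospholipase of B and myeloid cells, had a log2 fold change of 2.29 (q = 0.0286). Plcg2 did not pass with any of 5 libraries left out, namely pericyte replicate 1, 3 or 4 or SMC replicate 1 or 2 (q = 0.0619 to 0.0762), nor with no filter (q = 0.0653) or TPM scaling (q = 0.0730).

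The kinases on which CD45 acts, with their regulators, formed a list of 16 genes. Of these, 13 were higher in pericytes (q below 0.05), 1 was higher in SMCs and 2 did not pass, against 10.6% and 11.2% of all genes tested in these directions. Skap1, an adaptor of T cells, had 238 to 396 FPKM in pericytes and 2.65 to 5.21 FPKM in SMCs (log2 fold change 5.93, q = 8.5e-06). Lck, the Src-family kinase of T cells, had 491, 465, 426 and 350.3 FPKM in pericytes and 7.69, 9.19, 5.27 and 8.20 FPKM in SMCs. Its log2 fold change was 5.67 (SE 0.17, q = 4.9e-06). Ptpn22, a phosphatase that restrains Lck, had 111 to 193 FPKM in pericytes and 2.54 to 3.42 FPKM in SMCs (log2 fold change 5.19, q = 1.3e-05). Fyn and Lyn had smaller log2 fold changes of 1.48 and 1.61 (q = 6.9e-04 and 3.0e-04). Src itself was at 0.174 to 0.609 FPKM in pericytes and 0.158 to 1.08 FPKM in SMCs, and did not pass (q = 0.729). Yes1, a Src-family kinase of many tissues, was higher in SMCs, at 6.02 to 14.7 FPKM against 1.34 to 5.66 FPKM (log2 fold change -1.66, q = 0.0190). Its q value rose to between 0.0509 and 0.0543 without pericyte replicate 1 or 3 or SMC replicate 3 or 4.

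Partners of the 10 genes, such as adaptors that bind Vav1, subunits of the Rac-driven NADPH oxidase and receptors that recruit Ptpn6, formed a list of 18. Of these, 17 were higher in pericytes (q below 0.05) and 13 passed the fold threshold, against 10.6% and 3.24% of all genes tested. Lat, the membrane adaptor of the T cell receptor, had 223 to 433 FPKM in pericytes and 2.61 to 6.08 FPKM in SMCs (log2 fold change 5.72, q = 2.7e-05). Cd5, a receptor of T cells that binds Ptpn6, had 46.1 to 64.6 FPKM in pericytes and 0.501 to 0.877 FPKM in SMCs (log2 fold change 5.03, q = 4.5e-06). Wipf1, a partner of the actin regulator Was, had a log2 fold change of 0.86 (q = 0.0257) and lost its call without pericyte replicate 4 or SMC replicate 1, 2 or 3 (q = 0.0544 to 0.0688). Wipf1 also lost it with no filter (q = 0.0555) and with TPM scaling (log2 fold change 0.68, q = 0.203). Pak1, a kinase activated by Rac in many cell types, had 9.34 to 27.3 FPKM in pericytes and 7.30 to 11.6 FPKM in SMCs and did not pass (q = 0.252).

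**Figure D4:**
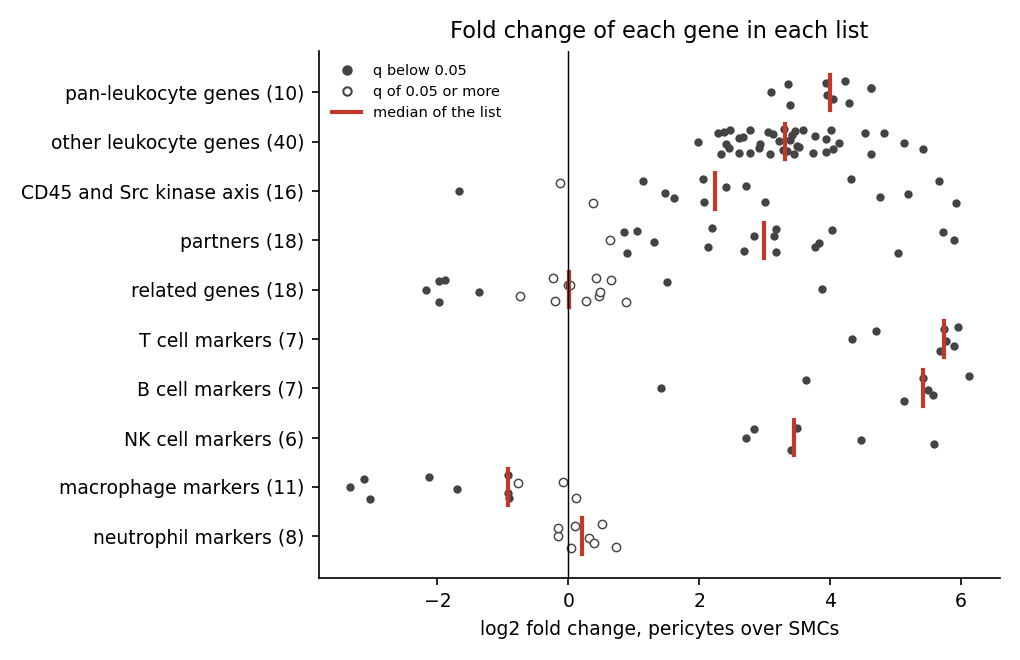
Log2 fold change, pericytes over SMCs, of each gene of 10 lists, with the number of genes in brackets. Filled points passed a limma q value below 0.05, open points did not, and the red bar is the median of the list. The medians are 4.005 for the pan-leukocyte genes, 3.32 for the 40 other leukocyte genes, 5.74 for T cell markers, 5.42 for B cell markers and -0.92 for macrophage markers.

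Marker genes of T, B and NK cells were measured beside the pan-leukocyte genes. Their counts are read against the 10.6% of all genes tested that were higher in pericytes. The 7 T cell markers, all higher in pericytes (q below 0.05), summed to between 1377 and 2126 FPKM in pericyte libraries and to between 22.5 and 34.8 FPKM in SMC libraries. The 7 B cell markers also all passed, and their sums ran from 846 to 2071 FPKM against 9.67 to 31.9 FPKM. The 6 NK cell markers all passed too, with sums of 213 to 358 FPKM and 4.61 to 7.63 FPKM. The median log2 fold change was 5.74 for T cell markers, 5.42 for B cell markers and 3.45 for NK cell markers, beside 4.005 for the pan-leukocyte genes. In SMCs Ncr1, Klrb1c, Eomes and Prf1 had 0.0572 to 0.467 FPKM. These values lie below the added constant of 1, so this scale understates their change. As ratios of mean FPKM, the NK cell markers ran from 15.6 (Klrk1) to 130 (Prf1). All but Klrk1 lay above 36.9 (Ikzf1), the highest ratio among the pan-leukocyte genes. The order of these medians thus depends on the scale.

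Macrophage markers differed from these lists. At a q value below 0.05, 8 of the 11 were higher in SMCs and 0 in pericytes, against 11.2% and 10.6% of all genes tested. Their sums were 890.0 to 1814 FPKM in pericytes and 1392 to 2079 FPKM in SMCs, and Lyz2, which neutrophils also use, made up most of them. Without Lyz2, left out after its values were seen, the sums of the other 10 were 89.2 to 234 FPKM in pericytes and 483 to 762 FPKM in SMCs, with no overlap. C1qa, a complement gene of tissue macrophages, had 3.82, 9.23, 21.9 and 4.65 FPKM in pericytes and 62.3, 59.5, 90.1 and 104 FPKM in SMCs (log2 fold change -3.12, q = 0.00416). Lyz2, the lysozyme of macrophages and neutrophils, had 656 to 1640 FPKM in pericytes and 778 to 1317 FPKM in SMCs (q = 0.892), and Cd68 had 46.9 to 104 FPKM and 57.2 to 89.2 FPKM (q = 0.833). No marker of the T cell, B cell, NK cell or macrophage list was at 0 in all libraries of a group. The part of T, B or NK cell RNA in the pericyte levels of the 10 genes, and of macrophage RNA in their SMC levels, was not tested.

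**Figure D5:**
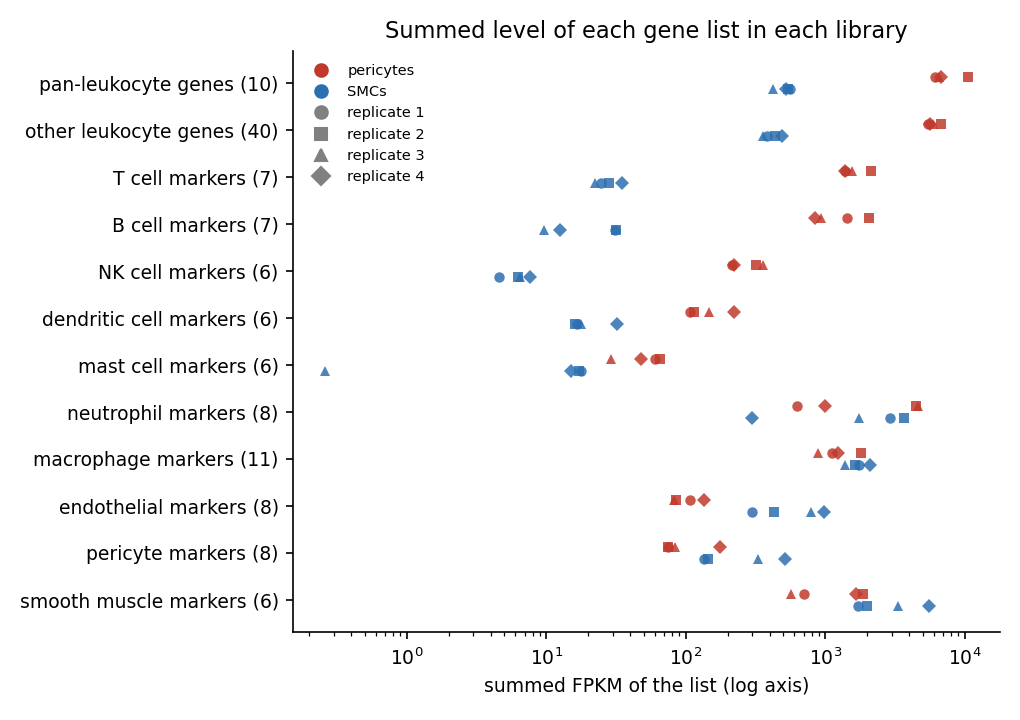
Summed FPKM of 12 gene lists in each library on a log axis, with the number of genes in brackets. Red symbols are pericyte libraries and blue symbols are SMC libraries, and the symbol gives the replicate number. Sums of the pan-leukocyte genes were 6084 to 10471 FPKM in pericytes and 424 to 555 FPKM in SMCs, and the macrophage sums of the groups overlap with Lyz2 included.

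The genes whose levels ran most closely with Ptprc were found by the root mean square distance between profiles over the 8 libraries, each centred on its own mean log2 level. Among 10235 genes with a mean log2 level of at least 2, the 10 members left out, the nearest was Fam65b, at a distance of 0.25 log2 units. It had 73.1, 35.8, 83.6 and 75.4 FPKM in pericytes and 1.24, 1.67, 3.07 and 4.03 FPKM in SMCs, so that pericyte replicate 2 was low and SMC replicate 4 was high, as for Ptprc. The next were Map4k1, a kinase of blood cells, at 0.34, Prf1, the perforin of cytotoxic lymphocytes, at 0.36, Cd22, a B cell receptor that binds Ptpn6, at 0.37, and Arhgap4 at 0.37. Their mean log2 levels in SMCs were 0.272 (Prf1) to 1.73 (Fam65b), so they met the minimum of 2 through their pericyte levels. The added constant of 1 also compresses low values. Prf1 had 0.112 to 0.274 FPKM in SMCs, and its ratio of mean FPKM was 130, against 21.5 for Ptprc. Among the other 9 members, Ikzf1 was nearest to Ptprc at 0.39 and Arhgdib was farthest at 1.004.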

How the data were processed

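Bulk RNA from 8 pools of sorted cells was turned into cDNA with SMART-Seq v4, and libraries were built with Nextera XT. The authors checked reads with FastQC, used Bowtie2 and TopHat with an Ensembl annotation to align them to NCBI Build 37, and deposited FPKM per gene and library, neither log transformed nor filtered. The program that computed FPKM and the use of strand are not given in the sources used here.

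The main test was a moderated linear model on log2(FPKM + 1), without a block, in limma 3.58.1 under R 4.3.3, and q values are Benjamini-Hochberg adjusted over 27414 genes, leaving out 10565 genes listed at 0 in every library. On simulated data, drawn with normal noise independent between genes, 190 of 200 genes shifted by 4 log2 units and 0 others were called. A call there needed q below 0.05 and a log2 fold change beyond 2 in size, so calls by q value alone were not examined. Only genes with a mean log2 level above 2 were shifted, and the length trend of the real libraries was not simulated. Exact permutation tests and figures used Python 3.11.15 with scipy 1.17.1. Positions and transcript lengths came from GENCODE version 1 for mouse (Ensembl release 65).

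The members, gene lists and motifs were chosen with earlier results of these data known. Named genes were all members, their paired relatives, the 3 largest and 2 smallest changes of each list, genes against the direction of a list, the 5 profiles nearest to Ptprc, and markers. The small log2 fold changes of Fyn and Lyn were named after their values were seen, and 1 gene that the rule names is not reported here. Alternatives were no filter, a minimum of 1 FPKM in 4 or more libraries, a constant of 0.1, TPM, quantile and median-ratio scaling, an intensity trend, the replicate number as a block, replicates 1 and 2 against 3 and 4 as a covariate, and each library left out. A correction of each library for transcript length and GC content was chosen after seeing the data, and its fit covered 20793 genes.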

Additional observations from a re-analysis of the deposited data

How the results depend on the processing

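All 10 pan-leukocyte genes kept a q value below 0.05 and a log2 fold change above 2 under each of 18 alternatives, with log2 fold changes from 2.59 (Cd52, length and GC trend removed) to 5.13 (Ikzf1, pseudocount of 0.1) and a largest limma q value of 0.00625. With each library left out in turn, Ptprc ranged from 4.0005 to 4.57 and Laptm5 from 3.76 to 4.42. The 9 pairs of members and relatives stayed apart in 14 alternatives. Leaving out a library cannot undo a complete separation, and the block was judged on the same values, so those alternatives could not fail. TPM and median-ratio scaling nearly cancel in a difference taken within a library. Of the 40 other leukocyte genes 38 to 40 passed, and of the 18 partners 15 to 17. A pseudocount of 0.1 raised the calls over all genes from 1616 to 2749, and those higher in SMCs from 728 to 1421. Scaling to a common sum (TPM) turned the split of calls from 888 higher in pericytes and 728 in SMCs to 822 and 1019. The split also turned with a pseudocount of 0.1 (1328 against 1421) and with the length and GC trend removed (787 against 855). Removing the length and GC trend also cut the genes tested from 27414 to 20793. With both changes the relatives higher in pericytes rose from 2 to 5, and the cause was not tested.

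Deviations of same-numbered pericyte and SMC libraries from their group means correlated across genes at 0.0794 to 0.474, and 5 of 8 libraries were closest to their own number. The main test did not take the numbers as pairs, as the study names no block. Replicates 1 and 2 correlated with replicates 1 and 2 of the other group at 0.0794 to 0.538, and 3 and 4 with 3 and 4 at 0.209 to 0.474. Between 1 or 2 and 3 or 4 the correlations were -0.451 to -0.102. The libraries of both groups thus divided into 1 and 2 against 3 and 4, and the origin was not tested. With the replicate number as a block, all 10 members were called, 1620 genes were called in all, 6 relatives in place of 5 were higher in SMCs, and 16 partners in place of 17 passed. Pdgfrb passed under the block (q = 0.00601). The number of reads behind each FPKM is unknown, so no counting error could be given.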

Other observations

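Lists of other blood lineages were measured with the same fit, in which 10.6% of all genes tested were higher in pericytes (q below 0.05). Of 6 dendritic cell markers 3 were higher in pericytes, and their sums were 106.6 to 220.3 FPKM in pericytes and 16.1 to 32.4 FPKM in SMCs. Siglech, a receptor of plasmacytoid dendritic cells, had a log2 fold change of 3.69 (q = 0.00117). Of 6 mast cell markers 2 were higher in pericytes, with sums of 29.2 to 65.9 FPKM and 0.261 to 17.7 FPKM. None of 8 neutrophil markers passed in either direction, and their sums varied within groups from 627 to 4627 FPKM in pericytes and from 297 to 3683 FPKM in SMCs. S100a8, a calcium-binding protein of neutrophils, had 277, 2202, 1968 and 476 FPKM in pericytes and 1312, 1642, 712 and 126 FPKM in SMCs. None of 6 erythroid markers passed.

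Laptm5 and Spi1 were both highest in replicates 3 and 4 of each group, whereas Coro1a and Rac2 were higher in SMC replicates 1 and 2. The difference between SMC replicates 1 and 2 and SMC replicates 3 and 4 on the log2 scale was 0.97 for Coro1a, 0.64 for Rac2, -1.69 for Laptm5 and -1.07 for Vav1. Over 13588 genes this difference correlated with transcript length at a Spearman correlation of -0.27, a description across genes.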
